A study of Mus musculus with 16 samples.

Results

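Cyp26a1, Cyp26b1, Stra8, Rara, Rarb, Crabp1 and Dhrs3 are genes of the retinoic acid pathway, and they are described here across sorted mouse spermatogonia. They were chosen by name as enzymes, receptors, a carrier and targets of retinoic acid, and all 7 were found among the 16383 genes of the expression table. Of these, 6 were among the 12907 genes with 1 FPKM or more in at least 4 libraries, the filter for testing, and Cyp26b1 was not. The study sorted undifferentiated spermatogonia, the mitotic germ cells that include the stem cells of spermatogenesis, from adult mice and sequenced their polyadenylated RNA. Its title places the work on SPRY4 and ERK signalling in the recovery of sperm production after germ cell damage.

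All 4 groups had received busulfan, a DNA-crosslinking drug that depletes the germline, at 10 mg/kg by intraperitoneal injection, and cells were collected at 10 days. From day 3 the mice received 7 daily injections of either PD0325901, which blocks the MEK kinases that activate ERK, at 2.5 mg/kg, or its vehicle of 10% DMSO in PBS. Each treatment was given to wild-type mice and to mice labelled as Spry4 germline knockouts. SPRY4 is a protein that ERK signalling induces and that dampens this signalling in turn. Each of the 4 combinations has 4 libraries. The library names of the wild type carry Spry4ff and those of the knockout carry GCRT beside Spry4KO, so any effect of what GCRT stands for cannot be told apart from that of the Spry4 deletion. No group without busulfan is analysed here. Each library name also holds an SP code of its own, with no meaning given. Replicate 1 of both knockout groups has codes well below those of all other libraries. The labels do not say whether each replicate is a different animal. The p-values therefore refer only to how far these libraries spread, part of which may be technical.

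Retinoic acid is made from vitamin A by retinol and retinaldehyde dehydrogenases, is carried in the cytoplasm by CRABP proteins, and is broken down by enzymes of the CYP26 family. It binds nuclear receptors of the RAR family, which sit on DNA as pairs with RXR receptors and switch on genes such as Rarb, Cyp26a1, Dhrs3 and Stra8. In the testis it drives undifferentiated spermatogonia into differentiation and later into meiosis. Several of its targets limit the signal in turn, because CYP26 enzymes destroy retinoic acid and DHRS3 converts retinaldehyde back to retinol.

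A retinoic acid response element of the DR5 type is a pair of 6-base half-sites, each A or G, then G, then G or T, then TCA, in the same orientation and 5 bases apart. RefSeq promoter windows on GRCm38.p6, from 250 bases before to 50 bases after a transcript start, were searched for it on both strands. The 7 genes had 12 such windows, and 1 window of Rarb and 1 of Cyp26a1 held a DR5 match. Over all 32851 windows, 32 held one, which is 0.0974%. The 250 bases before the start are printed for these 2 genes because Rarb and Cyp26a1 behaved differently across the libraries. They are written 5′ to 3′ in the direction of the gene, with the DR5 match in capitals.

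Rarb, chr14:16575477-16575726, minus strand: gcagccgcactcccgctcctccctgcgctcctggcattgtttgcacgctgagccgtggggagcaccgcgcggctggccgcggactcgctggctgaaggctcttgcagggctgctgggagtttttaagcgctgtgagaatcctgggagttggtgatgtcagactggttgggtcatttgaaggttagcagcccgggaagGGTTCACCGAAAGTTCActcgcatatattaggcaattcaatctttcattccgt
Cyp26a1, chr19:37697558-37697807, plus strand: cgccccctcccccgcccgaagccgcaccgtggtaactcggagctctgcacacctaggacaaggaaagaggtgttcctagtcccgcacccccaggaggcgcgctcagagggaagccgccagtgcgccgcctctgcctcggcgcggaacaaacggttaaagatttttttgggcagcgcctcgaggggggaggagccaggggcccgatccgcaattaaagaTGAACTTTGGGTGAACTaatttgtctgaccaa

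The Rarb match lies 53 to 37 bases before the transcript start and reads along the gene. The Cyp26a1 match lies 32 to 16 bases before the start and reads on the opposite strand, where it is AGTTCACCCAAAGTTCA. Read in the same orientation, the 2 matches share 15 of 17 bases, and 11 of the 12 half-site bases. The windows of the other 5 genes held no DR5 match, nor did those of the 44 further retinoid genes that had a window, which says only that these letters are not in those windows. The related elements with a spacer of 1 base (DR1) or 2 bases (DR2) were in 0.222% and 0.268% of all windows and in none of the 7 genes. A match is a description of the sequence, and the files hold no measurement of receptor binding.

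Values are FPKM, fragments scaled by transcript length and by library size, as the authors deposited them, so that levels can be compared between genes. FPKM steps of low genes gave an estimated 24481200 to 86880300 reads per library in the listed genes. Spry4, the deleted gene, was at 22.1 ± 1.66 FPKM (SD, n = 4) in wild-type vehicle libraries and 11.01 ± 3.13 in knockout vehicle libraries, with no overlap (two-sided exact permutation test, p = 0.0286, the smallest that 4 against 4 can give). It was at 21.5 ± 4.89 in wild-type and 12.9 ± 4.71 in knockout libraries under PD0325901, where the groups overlapped (exact permutation p = 0.0571). Spry4 RNA was thus measured in every library labelled as knockout, and the values do not show whether it comes from the deleted part of the gene. Zbtb16, a marker of undifferentiated spermatogonia, was at 85.6 to 125 FPKM and the germ cell helicase gene Ddx4 at 68.8 to 144 FPKM over the 16 libraries. The peritubular myoid markers, genes of the smooth-muscle-like cells around the tubules, were all in the table (12 of 12), and none was at 0 in all libraries. Their summed level ran from 1194 to 11943 FPKM. Nearly all of it came from the contractile genes Acta2, Myh11, Tagln, Des, Cnn1, Myl9 and Tpm2, which summed to 1152 to 11893 FPKM. The other markers were lower, with means of 20.6 FPKM for Col1a2, 12.7 for Col1a1, 4.49 for Col3a1 and 1.24 for Pdgfra. Dcn was under the filter at 0.176 FPKM. Replicate 3 of the knockout vehicle group had a summed level of 5 spermatid markers of 2577 FPKM, against at most 120 in the other 15 libraries.

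The 7 genes spanned a wide range of levels. Crabp1, which encodes a cytoplasmic retinoic acid carrier, was highest with a mean of 47.1 ± 8.10 FPKM (SD over 16 libraries). Stra8, a retinoic acid target needed for meiosis and already induced in differentiating spermatogonia, followed at 24.3 ± 6.38 FPKM and was below Crabp1 and above Rara in 16 of 16 libraries. Rara, the receptor RAR alpha, was at 9.22 ± 0.850 FPKM and Dhrs3, the retinaldehyde reductase, at 9.20 ± 4.72 FPKM. These neighbours did not differ beyond their spread, since Rara was the higher of them in 8 of 16 libraries. Cyp26a1, a retinoic acid hydroxylase, was at 2.59 ± 0.567 FPKM and lay below Dhrs3 in 15 of 16 libraries. Rarb, the receptor RAR beta, was at 1.05 ± 0.582 FPKM and lay below Cyp26a1 in 15 of 16. Cyp26b1, a second retinoic acid hydroxylase, was lowest at 0.527 ± 0.337 FPKM and lay below Rarb in 13 of 16, so the ranges of these last neighbours overlapped.

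**Figure D1:**
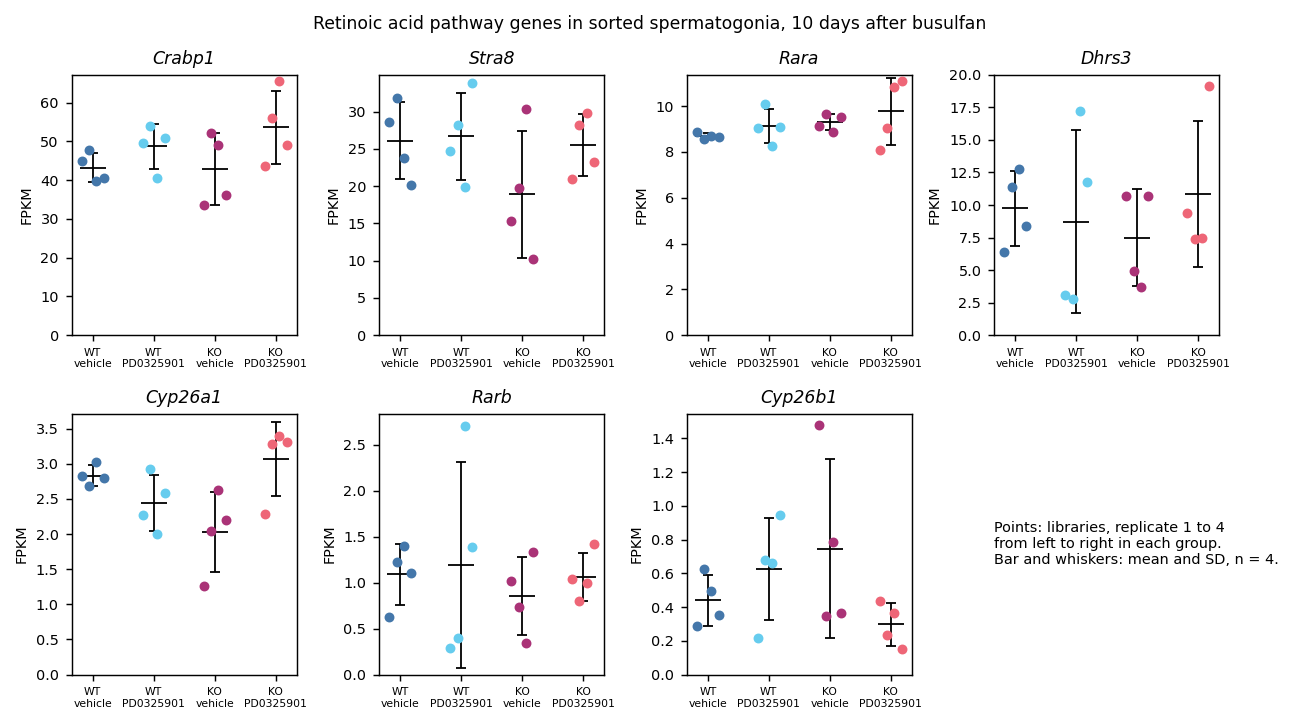
FPKM of the 7 genes (y axes, each starting at 0) in the 4 groups, with 1 point per library in replicate order and the mean and SD of 4 libraries. Cyp26a1 in knockout vehicle libraries sits below wild-type vehicle and Rara is nearly level. Rarb, Dhrs3 and Cyp26b1 scatter most within groups relative to their means.

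Cyp26a1 was the gene of the set whose groups stood farthest apart, with 48.6% of its variance on the log2(FPKM + 0.5) scale lying between groups, against a median of 12.7% over all tested genes. Wild-type vehicle libraries held 2.82, 2.68, 3.03 and 2.796 FPKM (replicates 1 to 4). Knockout vehicle libraries held 1.26, 2.04, 2.62 and 2.19 FPKM. All 4 knockout values lay below all 4 wild-type values, although the gap between 2.62 and 2.68 was small. Of all tested genes, 0.659% had every knockout vehicle library below every wild-type vehicle library and 0.806% had every one above. The log2 difference was -0.43 (SE 0.16, 95% interval -0.78 to -0.08) and did not pass after adjustment over all tested genes (limma, adjusted p = 0.9998).

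Under PD0325901 the wild type held 2.27, 2.92, 2.001 and 2.59 FPKM of Cyp26a1. The knockout held 2.29, 3.29, 3.40 and 3.31 FPKM under the inhibitor. Replicates 2 to 4 of that group lay above the highest wild-type PD0325901 library, while replicate 1 lay among them. The inhibitor difference was 0.51 in the knockout (SE 0.16, 95% interval 0.16 to 0.86) and -0.19 in the wild type (SE 0.16, 95% interval -0.54 to 0.16). Neither passed (limma, adjusted p = 0.968 and 0.9999). The difference between these inhibitor differences, the interaction, was 0.70 (SE 0.23, 95% interval 0.21 to 1.20) and did not pass either (limma, adjusted p = 0.999). The knockout vehicle libraries enter both the knockout and the inhibitor difference, so these values are not independent of each other.

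Library numbers in the labels run from 440 to 455 without a gap. They were cut here into a lower and a higher set of 8, with replicates 1 and 2 of every group in the lower one. The labels do not say what the numbers stand for. Within the lower set the Cyp26a1 difference between knockout and wild type under vehicle was -0.62, and within the higher set it was -0.23. The inhibitor difference in the knockout was 0.62 in the lower and 0.41 in the higher set, each from 2 libraries against 2. The sign was the same in both sets for both differences. Estimated reads behind a Cyp26a1 value ran from 124 to 480 per library.

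Stra8 spread most within knockout vehicle, with an SD of 45.1% of its mean, against 16.4% to 22.0% in the other groups. Cyp26b1, Dhrs3 and Rarb spread more than Stra8 in that group. Wild-type vehicle libraries held 28.6, 31.8, 23.7 and 20.2 FPKM and knockout vehicle libraries 15.3, 19.8, 30.3 and 10.3 FPKM. Replicate 3 of the knockout vehicle group was within the wild-type range, while replicates 1, 2 and 4 were under the lowest wild-type value. Replicate 3 was the library with spermatid RNA. It was also the highest of all libraries in summed spermatocyte markers (196 FPKM) and summed endothelial markers (18.5 FPKM). The part of RNA from such other cells in the Stra8 value was not tested. The log2 difference was -0.54 (SE 0.26, 95% interval -1.10 to 0.03) and did not pass (limma, adjusted p = 0.9998). Leaving out 1 library at a time, it ran from -0.79, without replicate 3 of knockout vehicle, to -0.29. In the lower and higher library-number sets it was -0.78 and -0.30.

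The inhibitor groups of Stra8 overlapped almost fully. Under PD0325901 the wild type held 24.8, 28.3, 19.8 and 33.8 FPKM and the knockout 20.9, 28.2, 29.9 and 23.2 FPKM, a log2 difference of -0.05 (95% interval -0.61 to 0.51). The knockout was higher under the inhibitor than under vehicle by 0.51 (SE 0.26, 95% interval -0.05 to 1.08), which did not pass (limma, adjusted p = 0.968). In the wild type the inhibitor difference was 0.03 (95% interval -0.54 to 0.59). These intervals leave room for differences of over 0.5 on the log2 scale in either direction for the wild type.

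Crabp1 lay in a narrower band. Vehicle libraries held 45.0, 47.7, 39.8 and 40.5 FPKM in the wild type and 33.6, 52.2, 49.1 and 36.3 FPKM in the knockout, so that replicates 1 and 4 of the knockout were below the wild type and replicates 2 and 3 above it. PD0325901 libraries held 49.5, 53.9, 40.5 and 50.9 FPKM in the wild type and 43.6, 56.1, 65.6 and 49.1 FPKM in the knockout. Groups overlapped in every comparison. The inhibitor difference pooled over both genotypes was 0.25 (SE 0.11, 95% interval 0.02 to 0.48), and it was 0.33 in the knockout and 0.17 in the wild type. None of these passed (limma, adjusted p = 0.9999, 0.968 and 0.9999).

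Rara was the steadiest of the 7 genes, with a coefficient of variation of 9.22% over the 16 libraries. It held 8.89, 8.55, 8.70 and 8.64 FPKM in wild-type vehicle libraries and 9.15, 9.67, 8.88 and 9.51 FPKM in knockout vehicle libraries, with replicate 3 of the knockout just inside the wild-type range and the other 3 above it. Under PD0325901 it held 9.04, 10.1, 8.26 and 9.10 FPKM in the wild type and 8.09, 9.03, 10.8 and 11.1 FPKM in the knockout. The log2 differences were 0.09, 0.09, 0.06 and 0.06, in the order knockout minus wild type with vehicle, the same with PD0325901, inhibitor minus vehicle in the wild type, and the same in the knockout. Their 95% intervals lay within -0.14 to 0.29, and none passed (limma, adjusted p = 0.9998, 0.9998, 0.9999 and 0.968).

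Rarg, the receptor RAR gamma and not one of the 7 genes, was the most abundant RAR RNA in all 16 libraries at 11.98 ± 1.86 FPKM. It made up 46.9% to 59.4% of the summed FPKM of the 3 RAR genes, Rara 34.6% to 46.6% and Rarb 1.24% to 11.3%. Cyp26a1 made up 42.8% to 85.2% of the summed FPKM of the 3 Cyp26 genes.

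**Figure D2:**
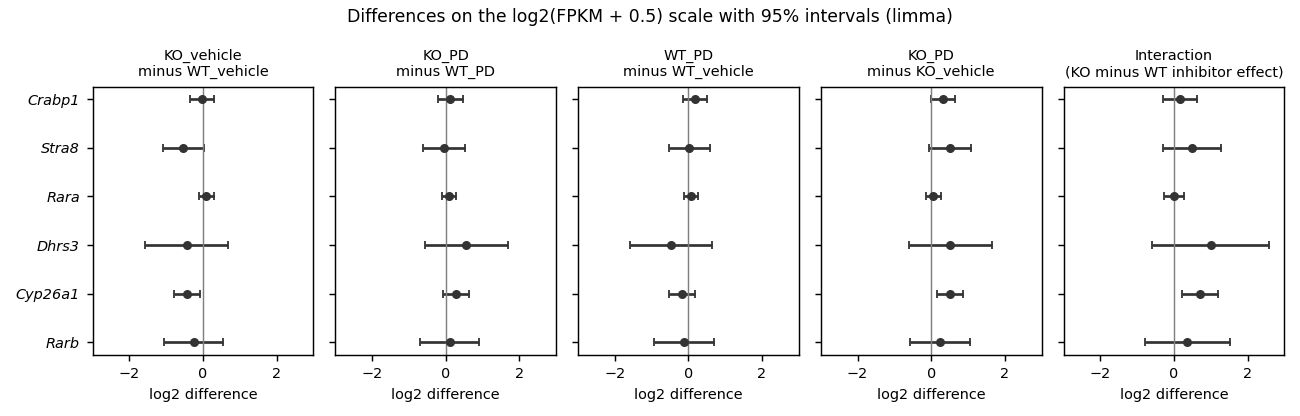
Log2 differences (x axes) of the 6 tested genes with 95% intervals from limma, for 4 comparisons of 2 groups and the interaction. Cyp26a1 has the interval farthest from 0 under vehicle, in the knockout inhibitor comparison and in the interaction, while Dhrs3 and Rarb have the widest intervals.

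Dhrs3 and Rarb varied strongly between libraries of the same group. Dhrs3 held 6.38, 11.4, 12.8 and 8.41 FPKM in wild-type vehicle libraries and 3.13, 2.77, 17.2 and 11.8 FPKM in wild-type PD0325901 libraries. In the knockout it held 10.7, 4.92, 3.70 and 10.7 FPKM under vehicle and 9.36, 7.39, 7.44 and 19.1 FPKM under PD0325901. Replicates 1 and 2 of wild-type PD0325901 were the lowest of all 16 libraries and replicate 3 of the same group the second highest.

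Rarb held 0.622, 1.23, 1.39 and 1.11 FPKM in wild-type vehicle libraries and 0.285, 0.396, 2.7025 and 1.39 FPKM in wild-type PD0325901 libraries. In the knockout it held 1.02, 0.738, 0.340 and 1.34 FPKM under vehicle and 1.04, 0.796, 0.999 and 1.42 FPKM under PD0325901. The same libraries were low for both genes, namely replicates 1 and 2 of wild-type PD0325901 and replicate 3 of knockout vehicle. Between groups lay 11.4% of the variance of Dhrs3 and 4.21% of that of Rarb, against a median of 12.7% over all tested genes. None of their differences passed (limma, adjusted p of 0.968 or above), and the 95% interval of the knockout difference under vehicle was -1.57 to 0.69 for Dhrs3 and -1.07 to 0.55 for Rarb.

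Both genes followed Acta2, the smooth muscle actin gene of the peritubular myoid marker list. Acta2 held 945, 2890, 3154 and 1986 FPKM in wild-type vehicle, 571, 367, 5095 and 3035 FPKM in wild-type PD0325901, 1751, 988, 538 and 2910 FPKM in knockout vehicle, and 1803, 1345, 1800 and 3937 FPKM in knockout PD0325901 libraries. The 3 libraries lowest in Acta2 were the same 3 that were lowest in Dhrs3 and Rarb. Over the 16 libraries, Dhrs3 had Pearson's r = 0.973 and Spearman's rho = 0.968 with Acta2, and Rarb had r = 0.957 and rho = 0.985 (permutation p = 1e-05 for each, the smallest that 100000 resamples can give, and 3.5e-05 adjusted over 7 relations). Without the 2 libraries farthest from the median of Acta2, replicate 2 of wild-type PD0325901 and replicate 3 of knockout vehicle, r was 0.957 for Dhrs3 and 0.958 for Rarb. Within the lower and higher library-number sets r was 0.967 and 0.970 for Dhrs3, and 0.945 and 0.956 for Rarb.

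Of the tested genes, 23.3% had an r with Acta2 of 0.7 or above, 1.503% had an r with Acta2 as high as that of Dhrs3, and 2.84% one as high as that of Rarb. The 7 contractile genes Acta2, Myh11, Tagln, Des, Cnn1, Myl9 and Tpm2 were all in the table, and their summed level ran from 2472 to 7695 FPKM in wild-type vehicle, 1152 to 11893 in wild-type PD0325901, 1351 to 7079 in knockout vehicle and 3326 to 9740 in knockout PD0325901 libraries. Mean Acta2 was 1547 FPKM in knockout vehicle and 2244 FPKM in wild-type vehicle libraries. The myoid markers Col1a1, Col1a2, Col3a1, Pdgfra and Dcn had the opposite order, for example Col3a1 at 6.46 and 2.36 FPKM. No tested gene passed limma in this comparison. Of 5 Leydig cell markers only Star was in the table, at 0.573 to 0.956 FPKM, and the other 4 have no value here. In the table, 6 of 9 Sertoli cell markers summed to 7.02 to 19.3 FPKM. The part of contractile RNA in the levels of Dhrs3 and Rarb was not tested. In such bulk samples, fewer cells of a type and less RNA per cell cannot be told apart.

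The other 5 genes showed no such relation. With Acta2, r was -0.37 for Crabp1, -0.28 for Stra8, -0.11 for Rara, -0.03 for Cyp26a1 and 0.03 for Cyp26b1, and rho was -0.41, -0.23, -0.20, -0.01 and 0.04 in the same order (permutation p of r adjusted over 7 relations, 0.369, 0.518, 0.913, 0.913 and 0.913). Within the lower library-number set Rara had r = -0.72 and in the higher set 0.04. With the mean log2 level of the contractile genes added to the model, the Cyp26a1 difference under vehicle was -0.47 and its inhibitor difference in the knockout 0.56, while the Rarb and Dhrs3 differences under vehicle turned to 0.06 and 0.02. None of these passed (limma, adjusted p = 0.968, 0.711, 0.973 and 0.990).

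**Figure D3:**
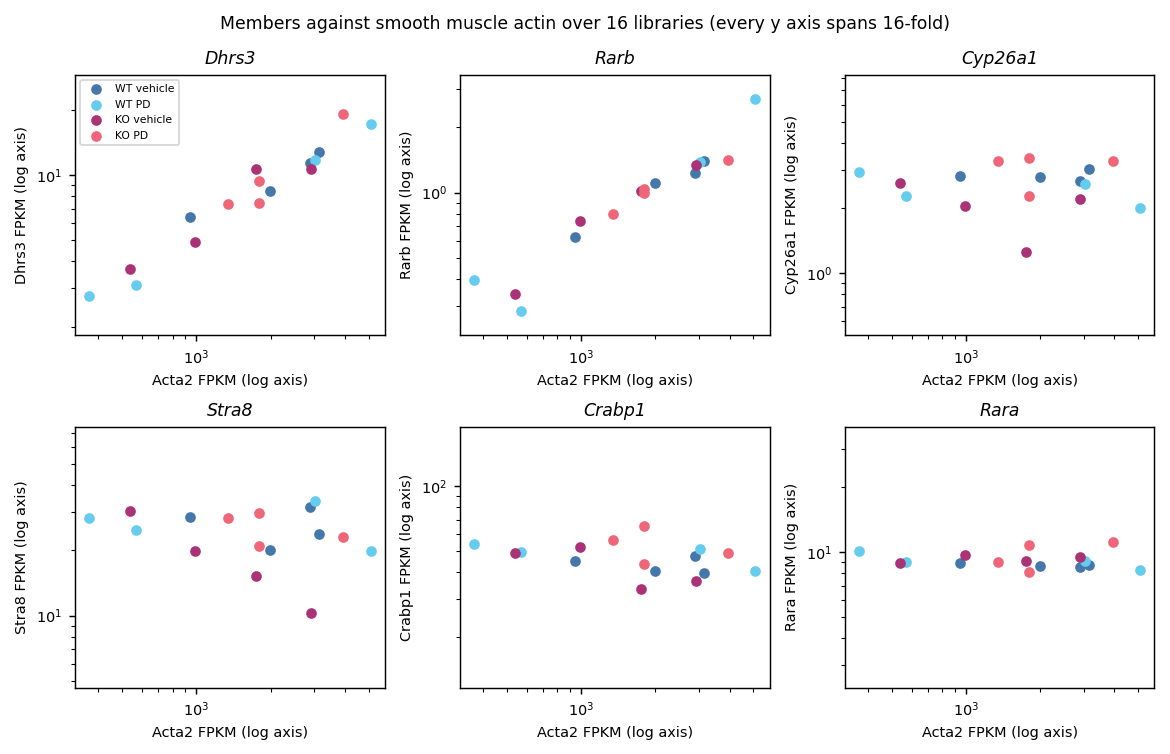
FPKM of 6 genes (y, log axes that each span the same number of doublings) against Acta2 FPKM (x, log axis), 1 point per library coloured by group. Dhrs3 and Rarb climb with Acta2 through all groups (r = 0.973 and 0.957), and Cyp26a1, Stra8, Crabp1 and Rara do not.

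Cyp26b1 was under the filter, with 1 of 16 libraries at 1 FPKM or more, and estimated reads of 32 to 450. It held 0.288, 0.624, 0.494 and 0.353 FPKM in wild-type vehicle and 1.48, 0.348, 0.787 and 0.364 FPKM in knockout vehicle libraries. Under PD0325901 it held 0.214, 0.681, 0.660 and 0.948 FPKM in the wild type and 0.437, 0.233, 0.365 and 0.153 FPKM in the knockout. Replicate 1 of knockout vehicle was the highest of all 16 libraries, and replicate 1 of wild-type PD0325901 was the only library of its group within the range of knockout PD0325901.

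By two-sided exact permutation tests over 4 libraries against 4, the Cyp26b1 log2 difference was 0.33 between knockout and wild type under vehicle (p = 0.4) and -0.47 under PD0325901 (p = 0.114). For inhibitor minus vehicle it was 0.23 in wild-type libraries (p = 0.4) and -0.57 in knockout libraries (p = 0.171), by the same exact test. Adjusted over these 4 tests, p was 0.4, 0.343, 0.4 and 0.343. Without replicate 1 of wild-type PD0325901, the difference under PD0325901 was -0.67 (exact permutation p = 0.0286, the smallest that this design allows). That p was fixed by the choice of library, since only this one lay within the knockout range, and nothing is concluded from it. Leaving out any other single library of these groups gave exact permutation p of 0.114 to 0.257.

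Among the 21 pairs of the 7 genes, 3 had an r over the 16 libraries with an adjusted permutation p under 0.05. Rarb and Dhrs3, which both followed Acta2, had r = 0.928 and rho = 0.971. Stra8 and Crabp1 had r = 0.719 and rho = 0.559 (permutation p adjusted over 21 pairs, 0.0155 for r and 0.268 for rho, which did not pass). Their r was 0.687 without the 2 farthest libraries, and 0.680 and 0.746 within the library-number sets. Cyp26a1 and Crabp1 had r = 0.647 and rho = 0.474 (adjusted permutation p = 0.0461), and its rho did not pass (adjusted permutation p = 0.268). Its r was 0.320 without the 2 farthest libraries, replicate 1 of knockout vehicle and replicate 3 of knockout PD0325901, so that the pooled value rests on them. It was 0.814 and 0.627 within the lower and higher library-number sets, each of which holds 1 of these libraries. The pair of Cyp26a1 and Stra8 had r = 0.594 and did not pass (adjusted permutation p = 0.0836).

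The genes whose log2 levels were most like each member were found over the 16 libraries, as a description without a test. Among the nearest to Dhrs3 were Tagln (r = 0.981), a smooth muscle gene, and Filip1 (0.976). Nearest to Rarb were Dyrk2, Nexn and Phldb2, with r = 0.980, 0.979 and 0.979. All 5 of these genes had r of 0.972 to 0.993 with Acta2.

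Nearest to Cyp26a1 were Dph2 (r = 0.878), Mafa (0.861) and Higd1a (0.858), and nearest to Cyp26b1 were Erlec1 (0.792), Jazf1 (0.768) and Zc3h6 (0.730). For Stra8 they were Pa2g4 (0.871), M1ap (0.836), a gene named for meiosis I, and Acaa1b (0.822). Crabp1 was most like Ebna1bp2 (0.907), Dlgap3 (0.891) and Deaf1 (0.873), and Rara most like Ino80e (0.857), Ell (0.841) and Smyd2 (0.836). No member was among the nearest 3 of another.

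Cyp26a1 under vehicle was the only case among the 7 genes in which 2 groups did not overlap. The shares of all tested genes entirely above and entirely below were 0.868% and 1.41% for the knockout under PD0325901, 0.434% and 0.225% for the inhibitor in the wild type, and 0.55% and 1.15% for the inhibitor in the knockout. In none of the comparisons did any of the 6 tested genes pass limma at an adjusted p under 0.05, and the share of all tested genes that passed was 0% in each of them. At an unadjusted p under 0.05, 1 of the 6 was counted in the knockout against wild-type comparison under vehicle (1.94% of all tested genes), 2 in the inhibitor comparison in the knockout (2.96%) and 1 in the interaction (1.71%). None was counted in the knockout comparison under PD0325901 (4.69%) or in the inhibitor comparison in the wild type (0.891%). Pooled over the other factor, the knockout difference counted 0 of the 6 (4.35%) and the inhibitor difference 1 (1.84%). On recovered read counts, limma voom passed 0 genes in all comparisons as well.

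Directions without regard to a test were as follows. Under vehicle 5 of the 6 genes were lower in the knockout, with a median log2 difference of -0.34, while 52.8% of all tested genes were lower and their median was -0.01. With the contractile level in the model 3 of the 6 were lower. In the knockout, 6 of 6 were higher under PD0325901 than under vehicle, with a median of 0.42, while 50.5% of all genes were higher and their median was 0.00, and with the contractile level in the model 5 of the 6 were higher. These comparisons share the knockout vehicle libraries. Under PD0325901 5 of 6 were higher in the knockout (median 0.12, 46.2% of all genes higher), and in the wild type 3 were higher and 3 lower under the inhibitor (median -0.05, 54% of all genes higher).

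A wider list of 65 genes, of which 54 were in the table and 48 were tested, sets these 7 genes in context. It holds retinoid pathway genes, targets of retinoic acid, and germ cell regulators of the response such as Zbtb16. None of the 48 passed limma in either direction in any comparison, and voom passed none either. At an unadjusted p under 0.05 there was 1 of 48 in each of the 4 comparisons of 2 groups and in the interaction. Pooled over the other factor there were 0 for the knockout and 3 for the inhibitor, where the share of all tested genes was 4.35% and 1.84%. Under vehicle 23 were higher and 25 lower in the knockout, with a median of -0.01. In the knockout 27 were higher and 21 lower under the inhibitor, with a median of 0.03. Both medians lay closer to 0 than those of the 6 tested genes of the set.

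Among genes of synthesis, Aldh1a2, a retinaldehyde dehydrogenase, was at 10.2 ± 1.89 FPKM (SD over 16 libraries), its relative Aldh1a1 at 3.78 ± 1.74 FPKM and the retinol dehydrogenase Rdh10 at 2.64 ± 0.236 FPKM. Aldh1a1 was at 2.703 ± 0.727 FPKM in wild-type vehicle, 5.25 ± 1.64 in wild-type PD0325901, 4.54 ± 1.999 in knockout vehicle and 2.62 ± 0.979 in knockout PD0325901 libraries (SD, n = 4 each). Its interaction of -1.49 (SE 0.48) had the sign opposite to that of Cyp26a1 and did not pass (limma, adjusted p = 0.999). Of the 10 tested synthesis genes, 8 were lower and 2 higher in the knockout under PD0325901 than under vehicle, with a median of -0.14. Of all tested genes, 50.5% were higher in this comparison. By limma, 0 of the 10 had an unadjusted p under 0.05 there. Under vehicle, 6 of them were higher and 4 lower in the knockout.

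Receptors and cofactors were all in the table, 13 of 13, and all were tested. Rxra, the highest of the RXR genes, was at 32.5 ± 2.63 FPKM, Rxrb at 11.7 ± 1.62 FPKM and the corepressor gene Ncor1 at 23.4 ± 2.04 FPKM. Crabp2, the second carrier, was under the filter at 0.540 ± 0.150 FPKM.

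Among the 10 tested germ cell genes that retinoic acid raises, Sohlh1, a differentiation factor, was at 61.7 ± 7.998 FPKM and Kit, the receptor that marks differentiating spermatogonia, at 2.47 ± 0.719 FPKM. Under vehicle 4 were higher and 6 lower in the knockout, and in the knockout 8 were higher and 2 lower under the inhibitor, with medians of -0.03 and 0.09. Of all tested genes, 52.8% were lower in the first comparison and 50.5% higher in the second. Of the 48 genes, 13 (27.1%) had an r with Acta2 of 0.7 or above, against 23.3% of all tested genes. An r of -0.7 or below was found for 6 of them (12.5%), against 10.6% of all tested genes. These 6 included Aldh1a2 (r = -0.85) and Zbtb16 (r = -0.71), which is a marker of undifferentiated spermatogonia and not an enzyme or receptor of the pathway.

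**Figure D4:**
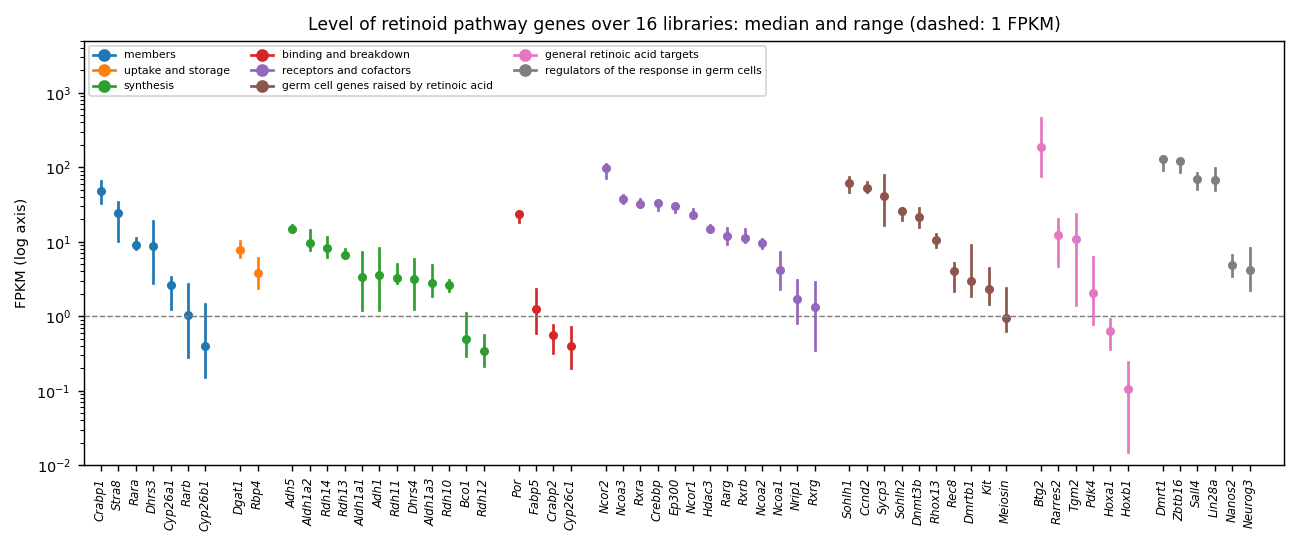
FPKM (log axis) of the 7 genes and 53 further genes of the wider list, grouped by role, with the median (point) and the range over 16 libraries (line), and a dashed line at 1 FPKM. Crabp1 and Stra8 lie above most of the listed genes, and Cyp26b1 and Crabp2 have medians under the line.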

How the data were processed

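RNA of 16 libraries, 4 in each of 4 groups, was analysed from 1 table of 16383 genes. The authors deposited FPKM values, a normalization by transcript length and library size. FastQC, STAR 2.7.10a and edgeR 4.0.14, and the builds mm10 and GRCm39, are named per the submitters' processing notes. The role of each, the annotation and any filter were not given in the sources used here. Libraries were made with a stranded messenger RNA kit, per the labels' protocols.

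Genes at 1 FPKM or more in at least 4 libraries (12907) were put on the scale log2(FPKM + 0.5) and tested by limma 3.58.1 (R 4.3.3). This scale understates differences of low genes. The model had 1 mean per group, a trend on the mean and Benjamini-Hochberg adjustment over all tested genes at 0.05. The fit was tested on simulated data. Cyp26b1 and Spry4 were compared by exact permutation, and correlations by 100000 resamples (Python 3.11.15, scipy 1.17.1). Reads were recovered from the steps of FPKM and the exon lengths of GENCODE M21 on GRCm38. With these, 92.9% to 93.8% of values under 100 reads fell within 0.1 of a whole number, and the recovered reads served for depth and for an added voom fit. Promoter windows came from RefSeq on GRCm38.p6, which may not be the build the authors used.

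The members, the wider list and the marker lists were chosen with earlier results of these data known. Named genes were the members, 11 genes of the wider list, the 3 genes nearest to each member by r, and Spry4, Acta2, Zbtb16, Ddx4 and Kit as checks. Of the wider list and of the nearest genes, 1 each is not reported here. Alternatives changed the pseudocount, filter, scaling, covariates, samples in the fit, trend and libraries.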

Additional observations from a re-analysis of the deposited data

Results flagged for a closer look

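A pair of values stood apart within their group of 4 libraries by Dixon's criterion, which compares the gap to the nearest library with the whole range of the group. Cyp26a1 in replicate 1 of knockout PD0325901 was 2.29 FPKM, below the other 3 libraries of that group. Replicate 1 of knockout vehicle was also the lowest of its group in Cyp26a1, at 1.26 FPKM. These are the libraries whose SP codes stand apart from the others, and any effect of what the codes stand for was not tested. Dhrs3 in replicate 4 of knockout PD0325901 was 19.1 FPKM, above the other 3, and Acta2 was also highest in that library of the group. These were 2 of 28 gene and group combinations checked, and chance sets apart about 1 in 20 groups.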

How the results depend on the processing

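Of 1163 alternative values of 46 member differences, 1105 kept their direction and 58 turned. The number of genes past the threshold was 0 in 185 of 186 counts. With the contractile level as a term it was 1 for the knockout pooled over both treatments, namely Spry4, lower by limma. Leaving out 1 library at a time gave 0 genes in every comparison.

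With the contractile term, Rarb turned to 0.063 for knockout against wild type under vehicle, -0.20 under PD0325901, 0.16 and -0.10 for the inhibitor in the wild type and in the knockout, and -0.26 for the interaction. Stra8 turned to 0.059 for the knockout under PD0325901 and -0.073 for the inhibitor in the wild type, Dhrs3 to 0.021 for the knockout under vehicle and -0.025 for the pooled inhibitor, and Rara to 0.012 for the interaction. Without replicate 4 of both wild-type groups, whose values carry more decimals (an alternative chosen after seeing the data), Stra8 was 0.071 and -0.21 in the same comparisons and Dhrs3 -0.13 for the pooled inhibitor. With voom, also added after seeing the data, Stra8 was 0.0091 for the knockout under PD0325901 and Rara 0.027 for the interaction, which was 0.0089 with median scaling. The causes were not tested.

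Leaving out 1 library, values that turned ran from -0.14 to 0.071 (Crabp1, knockout under vehicle), -0.0049 to 0.10 (Crabp1, pooled knockout), -0.13 to 0.0061 (Cyp26a1, pooled knockout), -0.13 to 0.28 and -0.20 to 0.21 (Dhrs3, pooled knockout and pooled inhibitor), -0.0058 to 0.14 and -0.068 to 0.077 (Rara, inhibitor in the knockout and interaction). They ran from -0.22 to 0.12, -0.18 to 0.49, -0.13 to 0.21 and -0.50 to 0.17 for Rarb (pooled knockout, knockout under PD0325901, pooled inhibitor, inhibitor in the wild type), and from -0.18 to 0.071 and -0.094 to 0.16 for Stra8 (knockout under PD0325901, inhibitor in the wild type). The Cyp26a1 differences kept their sign in the 4 comparisons of 2 groups and in the interaction, from -0.54 to -0.26 for the knockout under vehicle, 0.35 to 0.63 for the inhibitor in the knockout and 0.54 to 0.82 for the interaction. The Cyp26a1 values nearest 0 in these ranges, -0.26, 0.35 and 0.54, were those without replicate 1 of knockout vehicle. Cyp26b1 passed its exact test under PD0325901 only without replicate 1 of the wild type (-0.67). That replicate was the only one of its group within the knockout range, so its removal fixed this outcome.

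With Acta2, r of Cyp26a1 was 0.091 without the 2 farthest libraries, and in the higher library numbers r was -0.28 for Cyp26b1 and 0.035 for Rara. Same-numbered libraries of different groups were no more alike than others. Over 24 such pairs r of the deviations from group means ran from -0.53 to 0.73 (median -0.05), and 10 were above 0.1. Over 72 pairs of unlike number it ran from -0.74 to 0.72 (median -0.03), and 31 were above 0.1. Whether other differences between libraries hide a pairing was not tested. With the replicate block 0 genes passed in any comparison, 321 had an unadjusted p under 0.05 for the knockout under vehicle against 251 without it, and Cyp26a1 was -0.43.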
